A study of Mus musculus with 4 samples.

Results

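A set of 10 genes that mark or specify the deep-layer neurons of the cerebral cortex were examined for H3K27ac, the acetylated form of lysine 27 on histone H3 that marks promoters and enhancers in use: Fezf2, Bcl11b, Tbr1, Sox5, Etv1, Tle4, Ldb2, Crym, Hs3st4 and Syt6. They are 10 of the 21755 protein-coding genes of the GENCODE vM21 basic annotation. They were taken as a named list, chosen with earlier results of these data known. H3K27ac had been mapped by chromatin immunoprecipitation sequencing in the left cerebral cortex of female mice aged 2 months. The mice were of the strain B6CASTF1/J, an F1 hybrid whose parent strains were C57BL/6J and CAST/EiJ. The 4 samples were 2 pools, called I and J, each made from 4 biosamples and sequenced as 2 technical libraries. The samples analysed here share this condition, so no contrast could be tested, and all values below are descriptions.

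Deep-layer neurons occupy layers 5 and 6 of the cortex. Many of them send axons out of it, in layer 5 to targets such as the brainstem and spinal cord and in layer 6 to the thalamus. Their identity is set in the embryo by transcription factors that repress each other's programs, among them Fezf2 and Bcl11b on the side of subcerebral neurons and Tbr1 and Sox5 on the side of corticothalamic and early-born neurons. In adult cortex the same genes are used as layer markers. The tissue here was whole cortex, so a lower signal from fewer cells of a type and a lower signal per cell cannot be told apart.

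Signal is the value that the authors' peak caller gave each peak, on a scale of its own in each list. The main list was the replicated list, made from both pools, with 72027 peaks. The other lists used came from pool I alone, with 69834 peaks, and pool J alone, with 49839. A TSS peak is here a peak within 1000 bp of any transcription start site (TSS) of the gene in the basic annotation. A gene body peak lay elsewhere in the gene, and a flank peak within 100 kb of either end. On mm10, the genes of the plus strand are Tbr1 at chr2:61802930-61814114, Etv1 at chr12:38779380-38870484, Hs3st4 at chr7:123982869-124398989 and Syt6 at chr3:103575231-103645569. Those of the minus strand are Fezf2 at chr14:12342094-12348189, Bcl11b at chr12:107910403-108003602 and Sox5 at chr6:143828425-144781977, then Tle4 at chr19:14448150-14598051, Crym at chr7:120186380-120202111 and Ldb2 at chr5:44472132-44799680. Absence from a list is absence of a called peak, not of acetylation, and read depth is not given in the lists.

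The sequences of 5 promoters and 3 peak summits show where the peaks did and did not lie. The promoters are the 250 bases before a RefSeq start on GRCm38.p6 (mm10), a table that held 12 entries for 8 of the 10 genes. All are written 5′ to 3′ on the strand of the gene, and capitals mark CpG dinucleotides. The Etv1 promoter, at chr12:38779832-38780081 on the plus strand, lay under a peak of signal 12.9 and held 9 CpGs at 46.4% GC. The Tle4 promoter, at chr19:14598184-14598433 on the minus strand, lay in a gap of 415 bp between 2 peaks and held 24 CpGs. The Hs3st4 promoter, at chr7:123982578-123982827 on the plus strand, had no peak over it although it held 43 CpGs at 82% GC. The Syt6 promoter, at chr3:103574995-103575244 on the plus strand, had none over it either, with 13 CpGs. The Sox5 promoter belongs to the basic start nearest the 3′ end, at chr6:143947107-143947356 on the minus strand, and had no peak over it, with 3 CpGs. Over all 32619 promoters of the table, the median was 6 CpGs and 52.4% GC. Of all 12 entries, the 5 under a peak held 5 to 35 CpGs and the 7 with no peak over them held 1 to 43, so the ranges overlapped. The 35 CpGs belong to the other Tle4 entry, at chr19:14597214-14597463, which lay under a peak of 9.26.
Etv1 promoter: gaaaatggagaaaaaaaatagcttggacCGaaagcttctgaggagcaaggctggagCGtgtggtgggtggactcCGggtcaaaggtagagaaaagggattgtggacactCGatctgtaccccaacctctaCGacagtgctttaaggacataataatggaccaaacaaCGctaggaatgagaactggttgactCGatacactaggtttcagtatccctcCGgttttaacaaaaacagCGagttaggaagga
Tle4 promoter: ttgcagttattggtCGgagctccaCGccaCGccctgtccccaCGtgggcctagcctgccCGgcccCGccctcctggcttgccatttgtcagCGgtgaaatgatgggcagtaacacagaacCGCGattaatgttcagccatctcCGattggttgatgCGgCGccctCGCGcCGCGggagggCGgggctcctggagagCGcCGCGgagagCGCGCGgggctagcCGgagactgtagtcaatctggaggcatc
Hs3st4 promoter: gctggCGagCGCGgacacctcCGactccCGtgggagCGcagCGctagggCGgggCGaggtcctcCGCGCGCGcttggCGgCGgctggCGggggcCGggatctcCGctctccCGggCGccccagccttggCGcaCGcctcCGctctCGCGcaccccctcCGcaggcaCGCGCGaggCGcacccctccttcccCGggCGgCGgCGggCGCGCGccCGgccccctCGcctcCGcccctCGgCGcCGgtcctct
Syt6 promoter: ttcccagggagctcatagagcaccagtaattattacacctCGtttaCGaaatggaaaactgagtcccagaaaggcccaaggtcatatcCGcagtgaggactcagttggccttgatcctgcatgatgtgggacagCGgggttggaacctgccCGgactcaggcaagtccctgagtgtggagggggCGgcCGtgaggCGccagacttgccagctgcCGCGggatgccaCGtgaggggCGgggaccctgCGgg
Sox5 promoter: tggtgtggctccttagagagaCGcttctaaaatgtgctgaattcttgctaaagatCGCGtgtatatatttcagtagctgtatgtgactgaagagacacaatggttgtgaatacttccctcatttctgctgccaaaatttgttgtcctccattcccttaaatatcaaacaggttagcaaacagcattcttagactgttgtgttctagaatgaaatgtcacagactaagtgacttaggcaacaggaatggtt
The 3 summits, each with 200 bases around it, are those of the highest peaks away from TSSs at Ldb2 (chr5:44877692-44877891, 78.1 kb upstream), Bcl11b (chr12:107930647-107930846, in intron 3) and Fezf2 (chr14:12340469-12340668, just beyond the 3′ end), all on the minus strand.
Ldb2 upstream summit: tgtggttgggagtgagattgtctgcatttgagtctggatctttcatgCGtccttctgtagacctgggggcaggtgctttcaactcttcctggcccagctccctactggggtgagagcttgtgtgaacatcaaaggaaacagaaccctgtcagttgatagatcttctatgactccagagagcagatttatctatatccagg
Bcl11b intron summit: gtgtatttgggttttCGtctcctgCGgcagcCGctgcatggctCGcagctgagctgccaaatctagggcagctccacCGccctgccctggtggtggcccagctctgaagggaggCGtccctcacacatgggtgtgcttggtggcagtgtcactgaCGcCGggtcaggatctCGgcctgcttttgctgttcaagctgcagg
Fezf2 downstream summit: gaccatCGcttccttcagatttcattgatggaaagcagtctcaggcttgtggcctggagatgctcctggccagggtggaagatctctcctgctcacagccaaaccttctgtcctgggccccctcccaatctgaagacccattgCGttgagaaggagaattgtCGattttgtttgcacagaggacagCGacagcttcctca

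All 10 genes had a TSS peak in the replicated list, against 58.5% of protein-coding genes. In the pool I list 9 had a TSS peak (58.2% of all) and in the pool J list 8 (55.2% of all). Of the 10, 8 had a TSS peak in the lists of both pools (54.7% of all). The same 2 genes were lost at a −log10 q of at least 5, which 8 of the 10 passed (54.8% of all). The TSS peak of Crym was thus listed in pool I and not in pool J, and that of Syt6 in the replicated list but in neither pool list. Of the 12719 protein-coding genes with a TSS peak, whose highest TSS peaks had a median signal of 8.86, these 10 had a median percentile of 28.6. They ranged from the 0.185th percentile for Syt6 to the 83.7th for Tle4, and 3 of the 10 lay above the median of all genes.

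**Figure D1:**
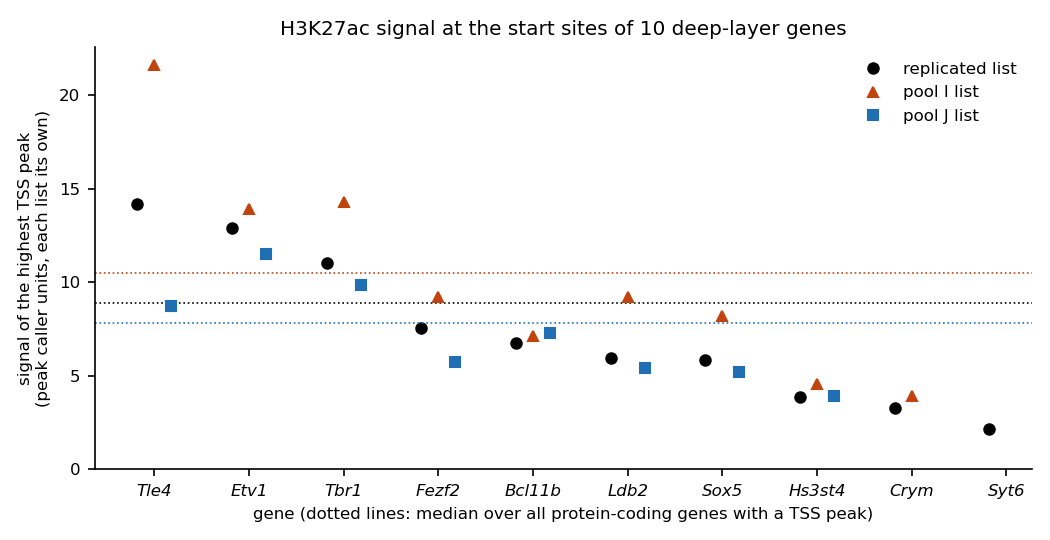
Signal of the highest TSS peak of each gene (vertical axis, peak caller units) in the replicated list (circles), the pool I list (triangles) and the pool J list (squares), with 1 value per list and dotted lines at each list's median over all protein-coding genes with a TSS peak (8.86, 10.5 and 7.79). Tle4, Etv1 and Tbr1 lie above all 3 medians and the other 7 genes below them, and Crym and Syt6 lack points where no peak was listed.

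The 3 highest genes were above the median of all genes in both pools as well, which was 10.5 in pool I and 7.79 in pool J. Tle4, a Groucho-family corepressor that marks corticothalamic neurons, had 14.2 in the replicated list, 21.6 in pool I and 8.70 in pool J. Etv1, an ETS factor of layer 5 neurons, had 12.9, with 13.9 in pool I and 11.5 in pool J. Tbr1, the T-box factor of layer 6, had 11.0, with 14.3 in pool I and 9.83 in pool J. These 3 changed places between the lists, Tle4 first in pool I and Etv1 first in pool J, so their order among themselves was not shared by the pools.

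Fezf2, Bcl11b, Ldb2 and Sox5 formed a middle group. Fezf2, a zinc finger factor needed for subcerebral neurons, had 7.56 (39.1st percentile), with 9.21 in pool I and 5.75 in pool J. Bcl11b, also called Ctip2, had 6.76 (32.2nd percentile), with 7.13 in pool I and 7.29 in pool J. Ldb2, a cofactor that binds LIM-domain proteins, had 5.96, with 9.21 in pool I and 5.38 in pool J. Sox5, an SRY-box factor, had 5.86, with 8.19 in pool I and 5.19 in pool J. Fezf2 and Ldb2 had the same signal in pool I, and Bcl11b was the lowest of these 4 in pool I and the highest in pool J. Neighbours in this group are therefore not separated by these data.

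Bcl11b is also expressed in striatal neurons and in interneurons. Of 6 striatal markers, 5 had a TSS peak, with a median percentile of 14.7, while Drd2 had none. In the replicated list Ppp1r1b had 7.52, Drd1 4.65, Adora2a 3.77 and Rgs9 3.46. Of 6 interneuron markers, 3 had a TSS peak in that list, with signals from 3.17 for Dlx1 to 3.87 for Gad1. Dlx2, Lhx6 and Sst had none there. In the pool I list 5 of the 6 had one, among them Dlx2 with 3.73 and Lhx6 with 2.71, and in the pool J list 3. The part of these cells in the Bcl11b signal was not tested.

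The lowest group held the 3 genes that are neither transcription factors nor their cofactors. Hs3st4, a heparan sulfate 3-O-sulfotransferase of layer 6 neurons, had 3.87 (8.76th percentile), with 4.57 in pool I and 3.90 in pool J. Crym, the thyroid hormone-binding protein mu-crystallin, had 3.27 (4.51st percentile), with 3.89 in pool I and no TSS peak in pool J. Syt6, a synaptotagmin, had 2.17 in a peak 281 bp wide with a −log10 q of 1.01. These 3 ranked last in the replicated list and, as far as they were listed, in each pool.

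The annotated start itself was inside a peak at some of the genes. The start nearest the 5′ end in the basic annotation lay inside a peak at 4 of the 10 genes, Bcl11b, Tbr1, Tle4 and Etv1, against 37.4% of protein-coding genes. At Ldb2 that start fell in a gap of 255 bp between a peak of 3.07 upstream and a peak of 5.96 downstream. At Hs3st4 the gap was 1243 bp, between a peak of 2.37 upstream and a peak of 3.87 downstream, and the latter also lay within 1000 bp of the start of another gene, Gm27040. The Tle4 gap shown above lay upstream of its annotated start, between the peak of 8.29 over that start and the peak of 14.2, which was 787 bp wide. At Crym the start was 107 bp from the nearest peak, and at Syt6 it was 1007 bp away.

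Base composition around these starts varied widely. Within 500 bp on either side, GC ranged from 43.1% at Fezf2 to 74.7% at Hs3st4, beside a median of 55.3% over coding genes. CpG observed over expected was 0.216 at Fezf2, the lowest of the 10, and 1.05 at Tle4, the highest, beside a median of 0.576. Hs3st4, with 0.912, combined a CpG-rich start with a low signal, while Tbr1, with 0.473, combined a start below the median with a high signal. For Fezf2, the window lies around the 5′ start, 12348189 on chromosome 14, and not around the 2 starts under its main peak.

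In all, 130 replicated peaks lay at the 10 genes: 17 TSS peaks, 71 gene body peaks and 42 flank peaks. Median signals were 6.62, 3.17 and 3.48 and median widths 1196, 579 and 608.5 bp, in that order. Over all replicated peaks the median signal was 3.67 and the median width 597 bp. Sox5 had the most peaks, 27, followed by Bcl11b with 26 and Ldb2 with 23, and Etv1 had the fewest, 4. Of the 71 gene body summits, 66 lay in introns, 1 in a coding exon and 4 outside every transcript of the basic annotation.

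**Figure D2:**
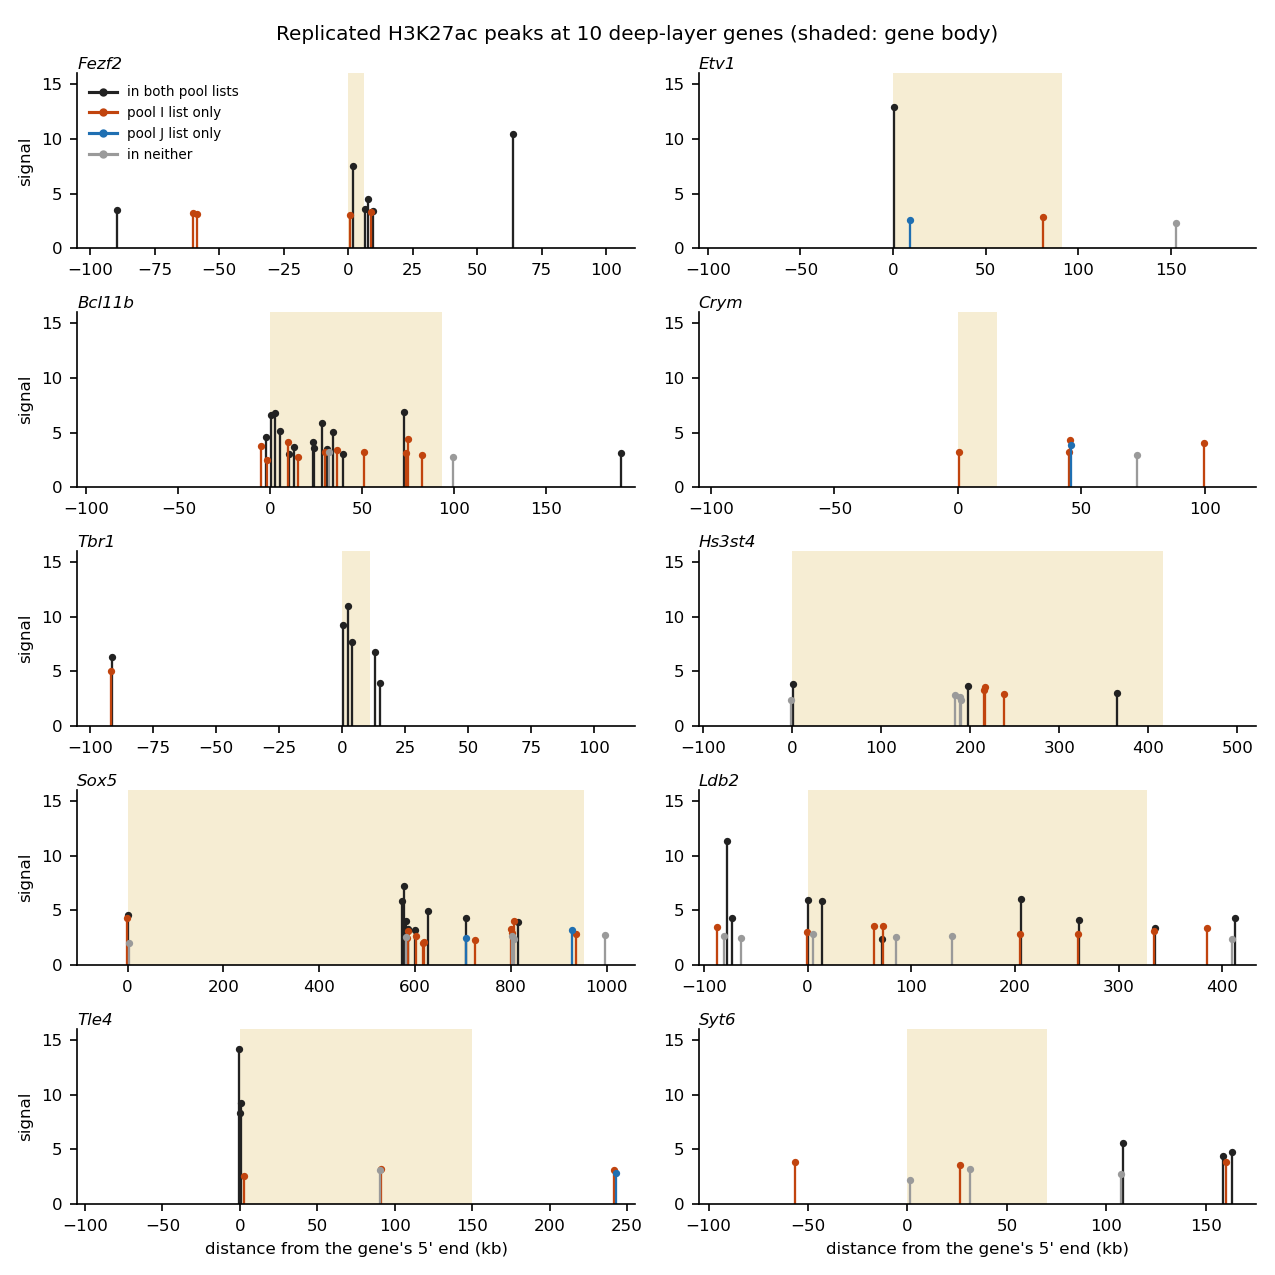
Every replicated peak at the 10 genes, as the distance of its summit from the 5′ end of the gene in kb (horizontal axis, a different range in each panel) and its signal (vertical axis), with the gene body shaded and colours for presence in the pool lists. Peaks crowd the 5′ part of Bcl11b, stand at the 5′ end of Sox5 and again from 572.6 kb into it, and reach 11.4 upstream of Ldb2, while Tle4 and Etv1 have their high peaks at the start alone.

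Of the 130 peaks, 54 (41.5%) overlapped a peak in the lists of both pools by at least 1 bp, against 56.0% of all replicated peaks. Another 48 were in the pool I list only, 5 in the pool J list only and 23 in neither. Median signals of these 4 sets were 4.57, 3.23, 2.85 and 2.67. Of the TSS peaks 12 of 17 (70.6%) were in both, against 82.2% of all TSS peaks, and of the gene body peaks 26 of 71 (36.6%), against 45.1% of all gene body peaks. The peaks found in both pools had the highest median signal of these sets, and every peak with a signal above 5.01 was among them, with a median width of 1118 bp against 281 bp for those in neither. At a −log10 q of at least 5, 57 peaks were left and 77.2% of them were in both lists.

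**Figure D3:**
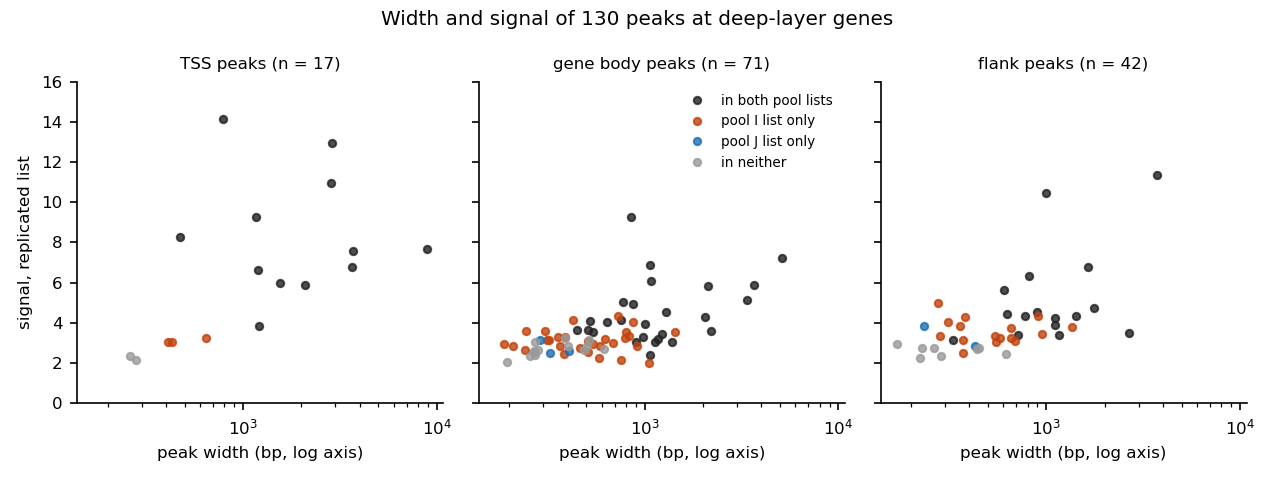
Width in bp (horizontal log axis) and signal in the replicated list (vertical axis) of the 17 TSS, 71 gene body and 42 flank peaks, coloured by presence in the pool lists. Every peak with a signal above 5.01 is in both lists, and those in neither list lie low, with a median signal of 2.67. The signal comes from both pools and is not independent of presence in their lists.

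Bcl11b had the densest gene body peaks of the 10. Its 93.2 kb held 19 gene body peaks, or 20.4 per 100 kb (95.5th percentile of coding genes, whose median was 0), and peaks covered 25.5% of the gene. Of the 19, 14 lay within 45 kb of the 5′ end, in introns 1 to 3, and the widest of these was 3688 bp with a signal of 5.86. The highest gene body peak stood apart from them, 72.9 kb into the gene in intron 3, at chr12:107930306-107931371, with 6.86 in the replicated list, 6.96 in pool I and 6.86 in pool J. This is the intron summit shown above, and in the replicated list it stood slightly above both TSS peaks of Bcl11b, which had 6.76 and 6.62. In each pool list the order was the other way, with 7.13 at the TSS in pool I and 7.29 in pool J. The peak of 6.76 had its summit 2.58 kb into the gene, and the peak of 6.62 was the one over the start.

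Tbr1 and Fezf2, both short, were covered almost from end to end. Peaks covered 97.6% of the 11.2 kb of Tbr1 (99.4th percentile of coding genes) and 85.5% of the 6.10 kb of Fezf2 (99.0th percentile). The Tbr1 peaks were 2856 bp with 11.0, and 8861 bp with 7.65, the widest of the 130, which pool I listed as 1 peak and pool J as 5. A peak of 848 bp with 9.26 lay at the 5′ end, and 2 peaks of 6.76 and 3.91 followed the 3′ end. At Fezf2 the main peak was 3703 bp with 7.56, and it and a TSS peak of 411 bp with 3.07 fell in 1 wider peak of pool I. Beyond it a peak of 3.58 crossed the 3′ end, and 3 downstream flank peaks had 4.47, 3.36 and 3.42, of which the first is the downstream summit shown above. Another 3 Fezf2 flank peaks, with 3.17, 3.27 and 3.49, lay 58.6 to 89.5 kb upstream.

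The 4 highest gene body peaks of the 130 were those of Tbr1 (9.26), Sox5 (7.24), Bcl11b (6.86) and Ldb2 (6.06), and 3 of these lay at starts that the basic annotation leaves out. The Tbr1 peak covers a start at 61802930 on chromosome 2 in the full annotation. The Sox5 peak, 5100 bp wide, covers starts at 144204427 and 144204057 on chromosome 6. The Ldb2 peak covers a start at 44593879 on chromosome 5. The Bcl11b peak lies at no such start. In all, 6 of the 71 gene body peaks lay within 1000 bp of a start that only the full annotation holds.

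In the replicated list a gene body peak stood above the highest TSS peak at 4 of the 10 genes, Bcl11b, Sox5, Ldb2 and Syt6, against 7.95% of protein-coding genes with a TSS peak. Among genes that had both kinds of peak it was 4 of 9, against 17.2%. These shares were not matched for the number of gene body peaks, which was 19 at Bcl11b, 24 at Sox5, 11 at Ldb2 and 2 at Syt6. With the starts of the full annotation, a gene body peak stood above the highest TSS peak at 2 of 8, Bcl11b and Syt6, against 14.2%. The pool lists kept this order at 1 of the 4, Sox5, where the body peak had 5.51 against 5.19 at the TSS in pool J and was also the higher in pool I. At Ldb2 the order turned in both pools, with 7.78 against 9.21 in pool I and 4.64 against 5.38 in pool J, as it did at Bcl11b. Syt6 had no TSS peak in either pool list to compare, so neither case left under the full annotation was shared by the pools. In the replicated list a gene body or flank peak above the TSS peak was found at 6 of the 10, against 64.1% of protein-coding genes with a TSS peak.

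Sox5, which spans 953.6 kb, was marked around internal starts. Its 5′ end carried a peak of 4.57 over a start of the full annotation at 144781919. Then followed 570.4 kb without a replicated peak, from 144209497 to 144779869 on chromosome 6. The TSS peak of 5.86 and the wider peak of 7.24 lay just past the far edge of this stretch, 572.6 and 577.6 kb into the gene. Within 60 kb downstream of the first basic start lay 11 gene body peaks. Another run of 6 peaks, with signals from 2.37 to 4.07, lay 801.3 to 813.9 kb into the gene. The start at 143947106, whose promoter is shown above, was 20.5 kb from the nearest peak.

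Ldb2 had its highest peak outside the gene. The peak at chr5:44875582-44879290, 3709 bp wide and 78.1 kb upstream of the start, had a signal of 11.4, against 5.96 at the TSS. Pool I listed it as 1 peak with 13.3 and pool J as 3 peaks, the highest with 9.46. Among protein-coding genes Ldb2 has the nearest start, and whether the peak acts on Ldb2 was not tested. Within the gene, a peak of 5.83 lay 14.4 kb from the 5′ end and the peak of 6.06 lay 205.6 kb from it. None of the 8 motifs described below was found in this summit or in the Fezf2 summit.

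The other genes had few peaks of note away from their starts. Tle4 had gene body peaks of 3.17, 3.07 and 2.53, and Etv1 of 2.60 and 2.87, so that their high TSS peaks stood alone. Hs3st4 had 8 in its 416.1 kb, all in intron 1 and 182.9 to 364.8 kb from the 5′ end, with signals from 2.42 to 3.67. Crym had none, and none of its 5 flank peaks had Crym as the nearest coding gene. Syt6 had 2, with 3.61 and 3.17, both above its TSS peak, and the first lay within 1000 bp of the start of Gm43066.

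Of the 42 flank peaks, 8 lay within 1000 bp of the start of another gene. The Fezf2 flank peak of 10.5, higher than any at Fezf2 itself, lay at the starts of 3830406C13Rik and Gm49355. Both Tbr1 flank peaks of 5.01 and 6.35 lay at Psmd14. Of the Crym flank peaks, 3 lay at 4930505K13Rik, Tmem159 and 4930560O18Rik. The others lay at Olfml3 and Gm10964 near Syt6 and at Gm42750 near Ldb2. By contrast, 22 flank peaks lay away from every start of the basic annotation and were nearest to the gene itself.

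Peaks close to each other were joined into clusters and ranked by the sum of signal times width, 24241 clusters in all, and a cluster was counted for a gene when it held a TSS or gene body peak of it, which leaves out the upstream peak of Ldb2. The Tbr1 cluster, 5 peaks covering 15.3 kb, ranked 398 (top 1.64%), and the Bcl11b cluster, 20 peaks over 56.6 kb, ranked 468 (top 1.93%). The main Sox5 cluster ranked 1430 (5.90%) and the Fezf2 cluster 2127 (8.77%). Etv1, at 10.6%, and Tle4, at 16.5%, followed, with higher single peaks in clusters that covered 3.27 and 2.93 kb. Of the 10 genes, 4 had a cluster in the top 10%, all 4 of them transcription factors, against 17.5% of protein-coding genes. None had a cluster in the top 1%, against 2.85% of protein-coding genes.

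The letters of 8 short motifs were searched on both strands within 100 bp of the summit. They were counted at the 70 gene body peaks of the 10 genes that lay at no start of the basic annotation. Beside them stand all 52300 replicated peaks away from those starts. Peaks at starts that only the full annotation holds were kept. AACAAT, bound by SOX factors, was in 8.57% against 8.61%. CAGATG, an E-box of neuronal bHLH factors, was in 14.3% against 17.1%. TTGGCA, an NFI half-site, was in 12.9% against 11.5%, and it is the only one of the 8 in the Bcl11b intron summit. TATAAA was in 12.9% against 9.76%, and the AP-1 letters TGANTCA in 4.29% against 5.90%. AGGTGTGA, bound by T-box factors, CCGGAAG, bound by ETS factors, and TGACGTCA, the CRE, were in none of the 70, against 0.925%, 1.07% and 0.140%, and a count of 0 in 70 allows a share of up to 4.29%. Of the 12 promoter entries, AACAAT was in 3, at Etv1, Tbr1 and Tle4, against 9.34% of all promoters. TTGGCA was in 2, at Etv1 and Sox5, against 12.3%, and TGANTCA in 1, at Fezf2, against 6.78%. CAGATG and TATAAA were each in 1, at Etv1, against 14.4% and 12.4%. AGGTGTGA, CCGGAAG and TGACGTCA were in none, against 1.13%, 6.96% and 1.56%. The Etv1 and Tle4 promoters printed above held none of the 8 motifs. All Etv1 matches were in its other entry, at chr12:38783461-38783710, which had no peak over it and 241 of its 250 bases in exons. The Tle4 match was in its other entry, at chr19:14597214-14597463. A match is a string of letters and not a bound site.

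Other lists of cortical genes were set beside the 10. Of 20 further deep-layer markers, 17 had a TSS peak, with a median percentile of 28.4, and Nxph4, Cplx3 and Chrna6 had none. The highest were Nfib (16.1), a nuclear factor I gene, and Myl4 (13.3), a myosin light chain gene. Of 10 other regulators of projection neuron identity, 8 had a TSS peak, with a median percentile of 71.5, and Fezf1 and Neurog2 had none. The highest was Ski (22.2), a corepressor gene. Of 12 upper-layer markers, 11 had a TSS peak, with a median percentile of 50.5, and Otof had none. Lmo4, a LIM-only gene, had 14.0. These lists differ in the kinds of gene they hold, and the differences between them were not tested.

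**Figure D4:**
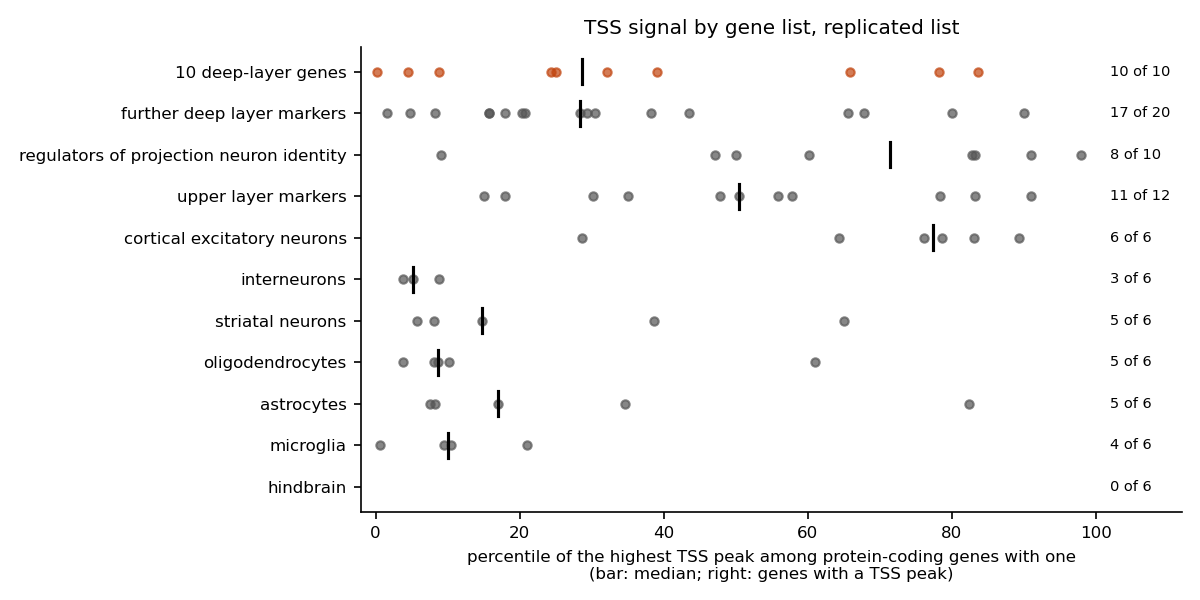
Percentile of the highest TSS peak of each gene among protein-coding genes with a TSS peak (horizontal axis), by gene list (rows), with a bar at the median and the number of genes with a TSS peak at the right. The 10 deep-layer genes spread from 0.185 to 83.7 with a median of 28.6, close to the 28.4 of the further deep-layer markers, and no hindbrain gene has a point.

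The tissue label was checked against markers. All 6 markers of cortical excitatory neurons had a TSS peak, with a median percentile of 77.4. None of 6 hindbrain genes had one. Of all protein-coding genes, 58.5% had one, so a lack of peaks at so few genes says little about the label. Glial markers were listed too, 5 of 6 for oligodendrocytes, 5 of 6 for astrocytes and 4 of 6 for microglia. Layer of origin cannot be read from peaks of whole cortex.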

How the data were processed

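H3K27ac ChIP-seq of mouse cortex was analysed from 4 peak lists on mm10 that the authors deposited: a replicated and a pseudoreplicated list of both pools, and a pseudoreplicated list of each pool. The 2 technical libraries of a pool share 1 alignment, so each pool is 1 value. No label or header used here names the aligner, the peak caller or the normalization of the signal. The lists are narrowPeak tables of 10 columns, from which the deposited signal, the deposited −log10 q and the summit of each peak were used as they stand. The authors' signal served only to describe and rank peaks within a list. Of the 72027 replicated peaks, 63593 (88.3%) have the same values in the pseudoreplicated list of both pools.

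Genes came from GENCODE vM21 basic (34568 coding and long non-coding genes with 55728 TSSs on 19 autosomes and X), and 1 pool I peak lay off these chromosomes. Peaks matched at 1 bp of overlap; clusters joined all peaks within 12500 bp of each other. Python 3.11.15, numpy 2.4.6 and scipy 1.17.1 were used, and peak assignment was tested on simulated data. The depth per sample is unknown, so no counting error is given, and no column of per-sample values was left unmatched. Alternatives were the promoter window, start set, reach, −log10 q minimum, overlap, list and each pool alone. All 10 members are named; of the cortical lists, the genes without a TSS peak and the 2 highest are named, except for results not reported here, and striatal and interneuron genes were named after their values were seen. Members and lists were chosen with earlier results of these data known. The list gene Ctgf is Ccn2 in the annotation and was matched through RefSeq synonyms.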

Additional observations from a re-analysis of the deposited data

How the results depend on the processing

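The count of genes with a TSS peak stayed at 8 to 10 under every alternative run: 10 with windows of 500 and 2500 bp, in the pseudoreplicated list of both pools and with the starts of the full annotation, 9 with the 5′ end alone (Syt6 lost), 8 where −log10 q had to be 5 or more, and 8 to 9 with a pool left out. The number of peaks at the genes, 130, was 57 with that minimum and ranged from 72 to 141 with each pool left out; without pool I it was 72. The share of peaks in both pool lists, 41.5%, became 25.4% when each of the 2 peaks had to be covered by 50% and 77.2% with the minimum of 5. The median percentile of TSS signal, 28.6, was 34.5 with a window of 2500 bp and ranged from 35.7 to 40.4 with a pool left out, where Syt6, or Crym and Syt6, have no value. A gene body peak above the TSS peak was found at 4 genes with the basic annotation and at 2 with the full, and the order held in both pool lists at 1, Sox5; both alternatives were chosen after seeing the data. No paired analysis was possible because each pool has 1 list and no result comes from a test. Depth is not given, so a missing weak peak, as at Syt6 or Crym, cannot be told from a shortage of reads.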
